A study of Mus musculus with 22 samples.

Results

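RNA of 9 fat cell marker genes was followed in 22 mouse kidneys: Adipoq, Cfd, Cidec, Plin1, Fabp4, Lep, Ucp1, Cebpa and Gpd2. The members were the rows of the count table whose symbol is on that list, and 9 of 9 were present among 32858 genes. They were chosen by their measured CPM in these kidneys (their level in each group and how it varied from kidney to kidney), so these levels are described without a test. Male C57Bl6/J mice of 8 to 10 weeks made up 4 groups: Vehicle (5 mice, given the carrier of KW6002, a mixture of DMSO, cremophor and saline), KW6002 (6 mice, istradefylline, an antagonist of the adenosine receptor encoded by Adora2a, 3 mg/kg daily from day -5 to day 7), Cisplatin (5 mice, 6 daily intraperitoneal injections of 3 mg/kg, a platinum drug that injures the proximal tubule) and Cisplatine + KW6002 (6 mice, both agents at these doses). Mice given cisplatin were sacrificed 72 hours after its last injection, and each mouse gave 1 kidney library of polyadenylated RNA. The labels name the tissue only as kidney, and the sources used here do not say how much fat was left on the organ when it was taken. The RNA does not show where fat cells lay, and fat left on a kidney and a change in the animal's fat cannot be told apart in these libraries.

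The kidney lies in a pad of perirenal fat, which holds white fat cells and, near the hilum, brown ones. White fat cells store triglyceride in a single droplet coated by perilipin 1 (Plin1) and the droplet-fusing protein Cidec, take up and carry fatty acids with the binding protein Fabp4, and secrete adiponectin (Adipoq), leptin (Lep) and complement factor D or adipsin (Cfd). Brown fat cells burn fatty acids for heat through uncoupling protein 1 (Ucp1), and the mitochondrial glycerol-3-phosphate dehydrogenase Gpd2 is also abundant there. Cebpa, C/EBP alpha, is a transcription factor that drives fat cell formation. Several of these genes are used outside fat too: Fabp4 in small vessels and macrophages, and Cebpa and Gpd2 in other epithelia and tissues. In RNA from a whole kidney, fewer cells of a type and less RNA per cell cannot be told apart.

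Library totals ran from 26471762 to 40510754 counts, with a median of 32721214.5, so 3 counts, the number that a count of 0 allows, come to 0.0741 to 0.113 CPM. CPM are counts divided by the library size and scaled to the usual counts-per-million unit, here after TMM scaling, which sets each library against the others so that most genes balance. The 9 members passed the filter on low counts, which kept 17131 genes, Lep through the groups other than Cisplatine + KW6002. The label numbers of the mice fall in 2 series, the 300s (3 Vehicle and 3 KW6002 mice) and the 500s (the other 16). No kidney of the 300s had received cisplatin, so for comparisons with Vehicle the values within the 500s are given as well, with 2 Vehicle mice. The proximal tubule markers, which check the tissue label, summed to 33123 to 37807 CPM in Vehicle and 1949.6 to 3500.4 CPM in Cisplatin.

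The start regions of 3 members are shown because their genes fill different roles here, a secreted marker that served as the yardstick for fat RNA, the hormone that was nearly absent after co-treatment, and the droplet coat that was low relative to that yardstick. RefSeq promoters of build GRCm38.p6, 250 bases before to 50 bases after the transcription start, matched 8 of the 9 members by symbol, in 10 start regions, all except Fabp4. Each is written 5′ to 3′ on the strand of its gene. Capitals mark the letters TTGCNNAA, a C/EBP-type motif chosen because Cebpa is a member, the CCAAT box, and the letters TATAA, each sought on both strands (TTNNGCAA, ATTGG and TTATA).
Adipoq, chr16:23146286-23146585, plus strand: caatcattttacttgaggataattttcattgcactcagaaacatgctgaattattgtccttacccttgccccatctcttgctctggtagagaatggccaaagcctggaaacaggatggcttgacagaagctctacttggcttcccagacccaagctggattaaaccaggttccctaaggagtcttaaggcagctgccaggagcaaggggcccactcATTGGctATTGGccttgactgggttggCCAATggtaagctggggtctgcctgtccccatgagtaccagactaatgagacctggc
Lep, chr6:29059971-29060270, plus strand: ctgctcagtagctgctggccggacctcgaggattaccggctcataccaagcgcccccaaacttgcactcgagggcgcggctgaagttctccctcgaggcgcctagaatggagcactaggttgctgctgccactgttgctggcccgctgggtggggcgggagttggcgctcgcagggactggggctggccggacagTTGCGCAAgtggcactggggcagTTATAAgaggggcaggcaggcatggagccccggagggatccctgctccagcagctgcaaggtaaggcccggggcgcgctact
Plin1, chr7:79732727-79733026, minus strand: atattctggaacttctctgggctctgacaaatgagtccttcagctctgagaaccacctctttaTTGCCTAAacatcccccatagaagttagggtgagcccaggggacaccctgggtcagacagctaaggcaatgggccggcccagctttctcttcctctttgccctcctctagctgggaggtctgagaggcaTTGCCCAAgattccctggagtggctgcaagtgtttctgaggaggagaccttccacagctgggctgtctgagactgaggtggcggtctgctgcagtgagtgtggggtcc
The Adipoq region held 3 CCAAT boxes, beginning 34, 27 and 7 bases before the start, and no match to the C/EBP letters. Lep had a C/EBP match 55 bases before the start and overlapping TTATA and TATAA letters at 32 and 31 bases, and Plin1 had C/EBP matches at 187 and 58 bases. Of the 10 start regions, 4 held the C/EBP letters (of Lep, Plin1, Cidec and Gpd2, with Cidec and Gpd2 each having 2 regions), 1 held the CCAAT box and 2 held TATAA (of Lep and Cebpa). Among all 32851 promoter regions of the same length the shares were 10.8%, 37.4% and 24.9%. These are matches of letters and say nothing of binding in the kidney.

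Fat marker RNA varied widely between kidneys of the same group. Adipoq, the hormone made almost solely by fat cells, was at 71.3, 138, 18.8, 18.0 and 7.38 CPM in the 5 Vehicle kidneys (50.7 ± 54.8, mean ± SD, n = 5). In Cisplatin it was at 22.2, 26.01, 48.8, 55.5 and 38.4 CPM (38.2 ± 14.3, n = 5). KW6002 kidneys ran from 1.85 to 42.5 CPM with a median of 16.6 (n = 6), and Cisplatine + KW6002 kidneys from 0.408 to 32.2 CPM with a median of 8.39 (n = 6). The highest kidney was thus 18.7 times the lowest in Vehicle, 22.9 times in KW6002 and 79.1 times in Cisplatine + KW6002, but 2.504 times in Cisplatin. By median the order was Cisplatin, Vehicle, KW6002 and Cisplatine + KW6002, and the ranges of neighbours in that order overlapped, as did those of the first and the last group.

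**Figure D1:**
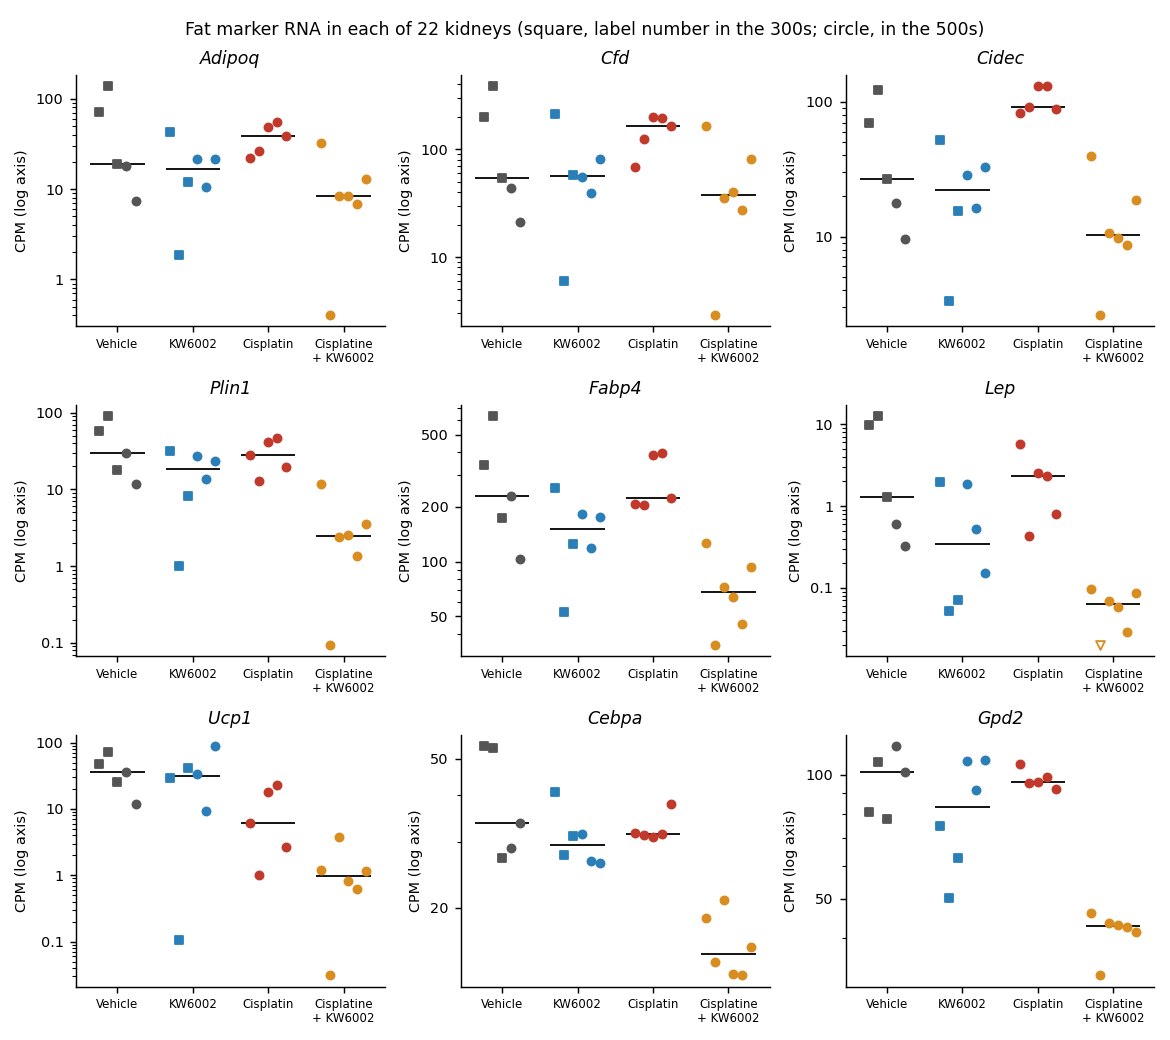
CPM of the 9 members (log axis) in each kidney by group, with 1 point per kidney, squares for label numbers in the 300s, circles for the 500s and a line at the group median. The open triangle marks a count of 0 for Lep, drawn at the foot of the axis. Vehicle replicates 1 and 2 lie high for Adipoq (71.3 and 138 CPM), replicate 2 of Cisplatine + KW6002 lies lowest (0.408 CPM), and Gpd2 and Cebpa separate the Cisplatine + KW6002 kidneys from the 3 other groups.

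The spread followed particular kidneys across genes. Vehicle replicate 2 was the highest of its group for Adipoq, Cfd, Cidec, Plin1, Fabp4, Lep and Ucp1, and KW6002 replicate 1 was the highest of its group for the first 6 of these. At the other end, replicate 2 of Cisplatine + KW6002 held 13 Adipoq counts, 3 Plin1 counts, 1 Ucp1 count and no Lep count, and replicate 2 of KW6002 held 71 Adipoq counts and 4 Ucp1 counts. These kidneys were not poor in each member. Replicate 2 of Cisplatine + KW6002 had 4.85% of the median Adipoq of its group mates, against 24.9% for Cidec, 47.9% for Fabp4, 75.7% for Gpd2 and 91.2% for Cebpa. In replicate 2 of KW6002 the same shares were 8.68%, 11.7%, 30.3%, 54.6% and 88.7%. Fabp4 RNA was thus still at 34.7 and 53.0 CPM and Gpd2 RNA at 32.6 and 50.1 CPM in the kidneys with the least Adipoq.

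Across the 22 kidneys, deviations of log2 CPM from the group means tied some members closely to Adipoq and others loosely. Pearson's r with Adipoq was 0.99 for Cfd, 0.96 for Cidec, 0.95 for Plin1 and 0.91 for Fabp4, 0.74 for Ucp1, 0.65 for Lep, 0.56 for Cebpa and 0.47 for Gpd2. Ranked over 17131 genes by this measure, Cfd came second after Adipoq itself, Cidec 8th, Plin1 9th, Fabp4 20th, Ucp1 123rd and Lep 271st, whereas Gpd2 came in place 967. The slopes set them apart further. For each doubling of Adipoq, log2 Cfd changed by 1.00, log2 Plin1 by 0.96, log2 Cidec by 0.74 and log2 Fabp4 by 0.43, but log2 Cebpa by 0.11 and log2 Gpd2 by 0.08. Without the 2 kidneys farthest from the median Adipoq level r was 0.97, 0.98, 0.89 and 0.95 for the first 4 members, and 0.48 for Ucp1, 0.70 for Lep, 0.70 for Cebpa and 0.01 for Gpd2, so the tie of Gpd2 over the 22 kidneys rested on those 2. Within the 500s (16 kidneys) r was 0.82 for Gpd2, 0.31 for Cebpa and 0.30 for Lep. These values describe kidneys that share library preparation and scaling, and carry no p.

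Within the groups of 6 the picture was alike for the closest members. Among KW6002 kidneys r with Adipoq was 0.98 for Cfd and 0.97 for Plin1, and among Cisplatine + KW6002 kidneys it was 0.99 for both. Without the 2 kidneys farthest from the group's median Adipoq level these were 0.73 and 0.86 in KW6002, and 0.99 and 0.92 in Cisplatine + KW6002. Lep reached 0.94 in the latter group, but from 0 to 3 counts per kidney. Cebpa was at 0.57 and 0.40 in these groups, and at 0.077 and 0.23 without the 2 kidneys farthest from the group's median Adipoq level. Gpd2 was at 0.68 and 0.96, and at 0.71 and -0.64 without them, so its tie among co-treated kidneys rested on those 2. Between Cebpa and Gpd2, r was -0.01 over the 22 kidneys.

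**Figure D2:**
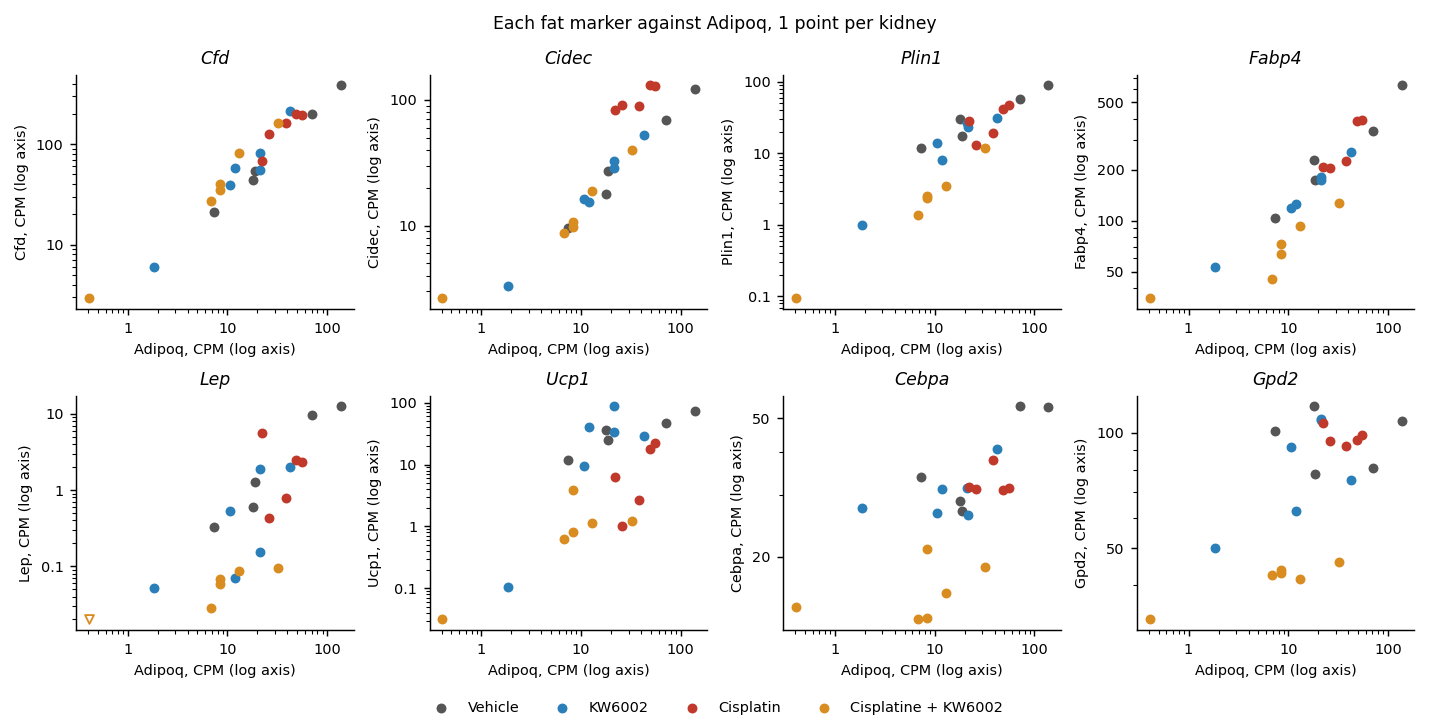
CPM of 8 members against CPM of Adipoq, both on log axes, with 1 point per kidney coloured by group. Cfd rises with Adipoq within the groups (r = 0.99 for deviations from group means). Its ratio to Adipoq was higher in each Cisplatin and Cisplatine + KW6002 kidney than in each Vehicle kidney, and KW6002 kidneys (2.60 to 5.04) overlapped these groups. Cidec of the Cisplatin kidneys lies above the line of the other kidneys, Plin1 of the Cisplatine + KW6002 kidneys lies below it, and Gpd2 is nearly flat within a group. The open triangle marks a Lep count of 0.

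Outside the list, the 15 genes that tracked Adipoq most closely, ranked among 13974 genes whose mean log2 CPM was 0 or more, had r from 0.91 to 0.98 over 22 kidneys. Among them were Adig, Acvr1c, Retn, Car3, Bche, Ankef1, Mrap, Adrb3, Slc1a3, A530016L24Rik, Cidea, Slc36a2, Serpina3c and Apol6. Adig (adipogenin), Retn (the hormone resistin), Adrb3 (the beta 3 adrenergic receptor) and Car3 (carbonic anhydrase 3) are known as fat cell genes, and Cidea coats droplets in brown fat. Of the 15, 5 were in the list of 17 further fat cell genes, 1 was in the brown fat list and 9 were in no list. Over the 17 fat cell genes the median r with Adipoq was 0.85 (from 0.44 for Sncg to 0.98 for Acvr1c), against -0.01 over the 17131 genes tested.

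Cells of other kinds were checked in the same kidneys. Macrophage markers moved with the fat markers: their median r with Adipoq was 0.60 over 8 genes, and Cd163, a scavenger receptor of resident macrophages, was at 10.6 and 18.8 CPM in Vehicle replicates 1 and 2 and at 10.7 CPM in KW6002 replicate 1, against 1.38 to 4.04 CPM in the other 8 kidneys of those groups. Summed over the list, macrophage RNA ran from 186 to 449 CPM in Vehicle, 168 to 503 in KW6002, 238 to 336.7 in Cisplatin and 131 to 226 in Cisplatine + KW6002. No gene of the list was at 0 throughout a group. The median r with Adipoq was -0.10 over 10 endothelial genes and -0.02 over 6 mesothelial genes. Adrenal RNA, from the gland above the kidney, stood out in 1 kidney: Cyp11b1, an enzyme of corticosterone synthesis, was at 15.5 CPM in replicate 6 of Cisplatine + KW6002 and at no more than 0.0802 CPM in the other 21. Skeletal muscle markers summed to at most 4.21 CPM. The part of macrophage or adrenal tissue in the fat marker values was not tested.

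Cisplatin against Vehicle asks what the drug alone did to these RNAs. None of the 9 members separated the groups: 0 of 9 were lower and 0 of 9 higher in every Cisplatin kidney than in every Vehicle kidney, where 27.9% of the 17131 genes tested were lower and 27.4% higher without overlap. The log2 fold changes were -0.40 ± 0.71 (SE) for Adipoq, 0.09 ± 0.79 for Cfd, 1.09 ± 0.62 for Cidec, -0.47 ± 0.66 for Plin1, -0.06 ± 0.42 for Fabp4, -1.05 ± 0.81 for Lep, -1.94 ± 0.81 for Ucp1, -0.27 ± 0.17 for Cebpa and 0.01 ± 0.16 for Gpd2, with a median of -0.27. Which Vehicle mice stood on the other side set the sign for several of them. Adipoq of the Cisplatin kidneys lay above both Vehicle kidneys of the 500s (18.0 and 7.38 CPM), with a log2 fold change of 1.59 within that series, and it was 0.40 without Vehicle replicate 2. Within the 500s Lep changed from -1.05 to 2.34, Plin1 from -0.47 to 0.52, Fabp4 from -0.06 to 0.76, Cebpa from -0.27 to 0.053 and Gpd2 from 0.01 to -0.17, whereas Ucp1 stayed negative at -1.27 and Cidec positive at 2.93. Cfd changed from 0.09 to 2.21 there. Its Cisplatin kidneys (68.0 to 200 CPM) lay above both Vehicle kidneys of the 500s (21.1 and 43.7 CPM).

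Relative to Adipoq of the same kidney, 3 of the other 8 members did separate Cisplatin from Vehicle. The ratio of Cidec to Adipoq was 0.979, 0.887, 1.43, 0.984 and 1.30 in the Vehicle kidneys and 3.73, 3.49, 2.68, 2.34 and 2.31 in the Cisplatin kidneys, 2.60 times higher by geometric mean. That of Cfd, which was nearly constant in Vehicle at 2.42 to 2.90, ran from 3.07 to 4.81 in Cisplatin. It ran from 2.60 to 5.04 in KW6002, with a median of 3.77, so a Cfd ratio above Vehicle was not particular to cisplatin. Ucp1 went the other way: its ratio was 0.664, 0.527, 1.34, 2.02 and 1.63 in Vehicle and 0.281, 0.0386, 0.364, 0.409 and 0.0685 in Cisplatin, 6.74 times lower. The ratio to Adipoq did not overlap between these groups in 1.86% of all genes tested on the higher side and 2.41% on the lower side. Adipoq is itself a member, and its spread in Vehicle widens the ratio of genes that do not follow it, which keeps these shares small. Both Vehicle kidneys of the 500s lay with the rest of their group for Cidec, Cfd and Ucp1. Plin1, Fabp4, Lep, Cebpa and Gpd2 overlapped.

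**Figure D3:**
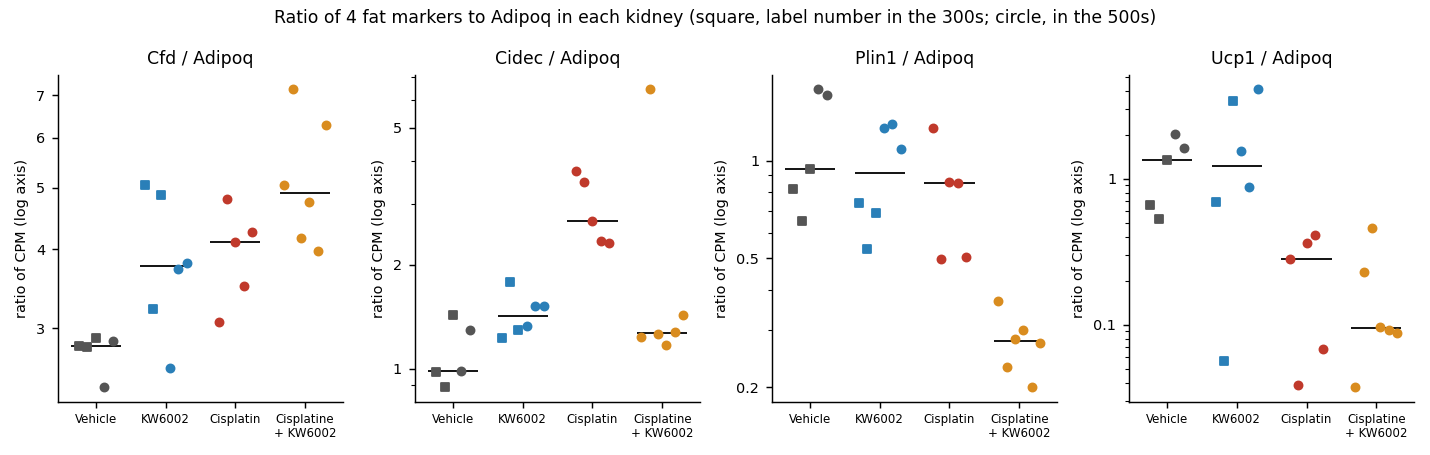
Ratio of the CPM of Cfd, Cidec, Plin1 and Ucp1 to that of Adipoq (log axis) in each kidney by group, with a line at the group median, squares for label numbers in the 300s and circles for the 500s. Cidec relative to Adipoq lies at 2.31 to 3.73 in Cisplatin and at 0.887 to 1.43 in Vehicle, Plin1 at 0.201 to 0.370 in Cisplatine + KW6002 and at 0.498 to 1.26 in Cisplatin. The single high Cidec ratio in Cisplatine + KW6002 is the kidney with 13 Adipoq counts.

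In Cisplatine + KW6002 against Cisplatin the 9 members had log2 fold changes below 0, and 6 of 9 (Cidec, Plin1, Fabp4, Lep, Cebpa and Gpd2) were lower in each co-treated kidney than in each Cisplatin kidney, where 18.5% of all genes tested were lower and 19.3% higher without overlap. Lep, at 0 to 3 counts in the co-treated kidneys, passed the filter only through the other groups. Its place among the 6 was therefore largely given in advance. The median over the members was -1.96, against 0.01 over all genes tested. Adipoq (-1.73 ± 0.71), Cfd (-1.37 ± 0.77) and Ucp1 (-3.02 ± 0.96) overlapped between the groups. These 11 mice carry label numbers of the 500s, so the label series does not enter here.

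Cidec RNA was at 82.8, 90.7, 131, 130 and 88.7 CPM in Cisplatin and at 2.63 to 39.9 CPM, median 10.2, in Cisplatine + KW6002 (log2 fold change -2.80 ± 0.62). Plin1 RNA was at 28.0, 13.0, 42.0, 47.2 and 19.4 CPM in Cisplatin and at 0.0941 to 11.9 CPM, median 2.44, in Cisplatine + KW6002 (-3.05 ± 0.71). For both droplet proteins the highest co-treated kidney, replicate 1, was also the highest in Adipoq. Relative to Adipoq, Plin1 remained lower in each co-treated kidney (0.201 to 0.370) than in each Cisplatin kidney (0.498 to 1.26), 2.76 times by geometric mean. Thus 1 of the other 8 members did so where 0.0117% of all genes tested did (2 genes), with 13.8% on the higher side. The kidney with 13 Adipoq counts holds that lower share down, since genes that do not fall with Adipoq have a high ratio there (79.9 for Gpd2). The share therefore does not measure how unusual Plin1 is. The Cidec ratio, 1.17 to 1.44 in 5 co-treated kidneys, was 6.46 in the kidney with 13 Adipoq counts and overlapped the Cisplatin range only through it. The same kidney, with 0 Lep counts set at 3, was the only one whose Lep ratio overlapped that range: the other 5 were at no more than 0.0126, against 0.0164 to 0.256 in Cisplatin.

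Lep, the hormone that reports fat stores to the brain, had 0 to 3 counts in each of the 6 co-treated kidneys, 11 in all. Vehicle kidneys were at 9.77, 12.6, 1.28, 0.598 and 0.325 CPM and Cisplatin kidneys at 5.67, 0.427, 2.503, 2.35 and 0.792 CPM. Vehicle replicates 1 and 2 of the 300s were the highest of the study, and the 2 Vehicle kidneys of the 500s, at 0.598 and 0.325 CPM (17 and 10 counts), were the lowest of their group but above each co-treated kidney. The Cisplatin kidneys held 17 to 213 counts. In KW6002, 2 of 6 kidneys were themselves at or under 3 counts. The co-treated kidneys therefore lie at the limit of what this depth shows.

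Gpd2 and Cebpa varied little within either cisplatin-treated group and separated the co-treated kidneys from the 3 other groups. Gpd2 was at 106, 95.2, 95.7, 98.4 and 92.2 CPM in Cisplatin and at 32.6 to 46.0 CPM, median 42.8, in Cisplatine + KW6002 (-1.23 ± 0.15). Cebpa was at 31.7, 31.3, 31.0, 31.6 and 37.9 CPM against 13.2 to 21.1 CPM, median 15.1 (-1.02 ± 0.17). For Fabp4 the values were 206, 206, 387, 394 and 224 CPM against 34.7 to 127 CPM, median 68.1 (-1.96 ± 0.41). Cebpa overlaps Gm45091 and Gpd2 overlaps A930012O16Rik and Gm13535 on the other strand, and the use of strand in counting is not given in the sources used here, so reads of these partners may be included.

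Against Vehicle, Lep, Ucp1, Cebpa and Gpd2 were lower in each co-treated kidney than in each Vehicle kidney, 4 of 9 members, where 18.5% of all genes tested were lower and 18.9% higher without overlap. The same co-treated kidneys enter this comparison as the last, and the place of Lep among the 4 has the same limit as there. Ucp1 was at 47.3, 72.6, 25.1, 36.4 and 12.1 CPM in Vehicle and at 0.0314 to 3.84 CPM, median 0.978, in Cisplatine + KW6002 (-4.95 ± 0.95). It was at 6.23, 1.00, 17.8, 22.7 and 2.63 CPM in Cisplatin, overlapping both groups. Relative to Adipoq, Ucp1 and Plin1 were lower without overlap in Cisplatine + KW6002 than in Vehicle (9.02 and 3.91 times by geometric mean) and Cfd was higher (1.86 times), against 0.035% and 1.77% of all genes tested on the lower and the higher side. The spread of Adipoq within both groups keeps these shares small too. Within the 500s the log2 fold change of Adipoq against Vehicle was -0.14 in place of -2.13 ± 0.72, that of Cfd 0.85 in place of -1.28 ± 0.77 and that of Cidec 0.14 in place of -1.71 ± 0.62, while Plin1 (-2.53), Ucp1 (-4.28), Cebpa (-0.97) and Gpd2 (-1.39) stayed below 0.

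KW6002 without cisplatin was not separated from Vehicle in any of the 9 members, where 0.987% of all genes tested were lower and 0.391% higher without overlap. Log2 fold changes ran from -2.64 for Lep to -0.22 for Ucp1 with a median of -0.97, against 0.00 over all genes tested. Adipoq was at -1.47 ± 0.70 and Fabp4 at -0.97 ± 0.40. Within the 500s these 2 were 0.49 and -0.07. No member other than Adipoq had a ratio to it that set the groups apart, against 0 and 0.00584% of all genes on the lower and higher side. The Cfd ratio overlapped at 2.60 to 5.04 (median 3.77), against 2.42 to 2.90 in Vehicle.

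Genes that are not members were then tested. All gene lists, here and below, were chosen with earlier results of these data known. The fat cell genes also tracked Adipoq in these kidneys (median r 0.85), so their p-values are no independent support for the members. The 17 further fat cell genes were fitted with the whole table by edgeR's quasi-likelihood test and adjusted over 17131 genes, in the same kidneys as the members. In Cisplatin against Vehicle 8 fell and 2 rose at an adjusted p below 0.05, where 35.9% of all genes fell and 34.6% rose, and the median log2 fold change was -1.45 against -0.01 for all genes. Adrb3, the receptor through which catecholamines start lipolysis in fat, fell from 11.4 ± 10.7 to 0.867 ± 0.446 CPM (log2 fold change -3.71 ± 0.79, adjusted p = 0.00024 by edgeR). Thrsp (a lipogenic nuclear protein) fell by 3.402 ± 0.57 on the log2 scale and Nnat (neuronatin) by 3.62 ± 0.93. The median of Nnat was 0.504 CPM in Vehicle and 0.588 CPM in Cisplatin, so its lower mean rested on the highest Vehicle kidneys (up to 24.6 CPM). Plin4, a droplet coat protein, rose from 39.6 ± 34.5 to 97.6 ± 14.2 CPM (1.31 ± 0.45) and Pnpla2, the lipase that opens triglyceride breakdown, by 0.95 ± 0.19. Retn (-1.65 ± 0.71) and Car3 (-1.98 ± 0.68), which tracked Adipoq at r = 0.98 and 0.97 within groups, also fell. Adrb3, Nnat, Plin4 and Acvr1c, like Lipe, Ppargc1a, Prdm16, Cidea, Acaca, G0s2, Cebpb, Cebpd, Stat5a and Cdh13 below, overlap annotated genes on the other strand, with the same limit as for Cebpa and Gpd2.

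These counts also depended on the Vehicle mice. With mice of the 500s alone 4 fell (Adrb3, Lpl, Slc2a4 and Thrsp) and 6 rose (Acvr1c, Lipe, Plin4, Pnpla2, Sncg and Trarg1), with a median of 0.47. Over all genes 5635 of 17761 fell and 5573 rose in that fit. With the label series as a covariate 4 fell and 2 rose, where 5899 of all 17131 genes fell and 5757 rose. Nnat, Retn and Car3 were not called lower in either of these fits. Without Vehicle replicate 2, 5 fell and 3 rose, where 6076 of all 17358 genes fell and 5858 rose. With log2 CPM of Adipoq as a covariate 9 fell and 4 rose, where 35.9% of all genes fell and 35% rose, and Adrb3 (-3.51 ± 0.26), Thrsp (-3.35) and Car3 (-1.84) were nearly as low as without it. Relative to Adipoq, Adrb3 was at 0.198 to 0.383 in Vehicle and 0.0135 to 0.0287 in Cisplatin, Retn at 0.366 to 0.603 and 0.140 to 0.209, and Thrsp at 0.874 to 2.94 and 0.104 to 0.262. The Lpl and Slc2a4 products, lipoprotein lipase and the insulin-responsive glucose carrier, are also made outside fat; both were named after their values were seen.

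In Cisplatine + KW6002 against Cisplatin 6 of 17 fell and 1 (Slc2a4) rose, where 27.2% of all genes fell and 28.6% rose, with a median of -0.88. Plin4 fell by 1.79 ± 0.43 to 28.3 ± 6.67 CPM, Pnpla2 by 1.06 ± 0.18, Acvr1c (a receptor of the activin family) by 2.00 ± 0.68 and Mrap (melanocortin receptor accessory protein) by 2.04 ± 0.51. Adrb3 (0.34 ± 0.81), Retn (0.11 ± 0.68) and Car3 (-0.39 ± 0.63) did not pass the test although Adipoq was lower. Trarg1, a regulator of glucose carrier traffic in fat that was named after its values were seen, fell by 2.69 ± 0.34. With Adipoq as a covariate 5 were called higher, Adrb3 (2.04), Retn (1.75), Thrsp (2.10), Car3 (0.85) and Slc2a4 (1.13). Called lower were 3 (Mrap, Pnpla2 and Trarg1), where 25.3% of all genes were higher and 23.7% lower. Adipoq is a member and was itself lower after co-treatment (-1.73), so these values are relative to it and need not be a rise in CPM. Adrb3 was at 0.867 ± 0.446 CPM in Cisplatin and at 1.10 ± 1.01 CPM in Cisplatine + KW6002. The ratio of Retn to Adipoq was 0.397 to 1.23 in the co-treated kidneys, above the Cisplatin range. Against Vehicle 13 fell and none rose in the co-treated kidneys, where 29.9% of all genes fell and 29.8% rose, with a median of -1.68. Within the 500s 5 fell and 1, Plin4, rose, where 4214 of all 17761 genes fell and 4364 rose. In KW6002 against Vehicle 0 of 17 passed edgeR's test or DESeq2's, with 0% of all genes lower and 0.0175% higher in edgeR. The median was -0.88. By edgeR 8 of the 17 had an unadjusted p below 0.05, as did 1930 of all 17131 genes.

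**Figure D4:**
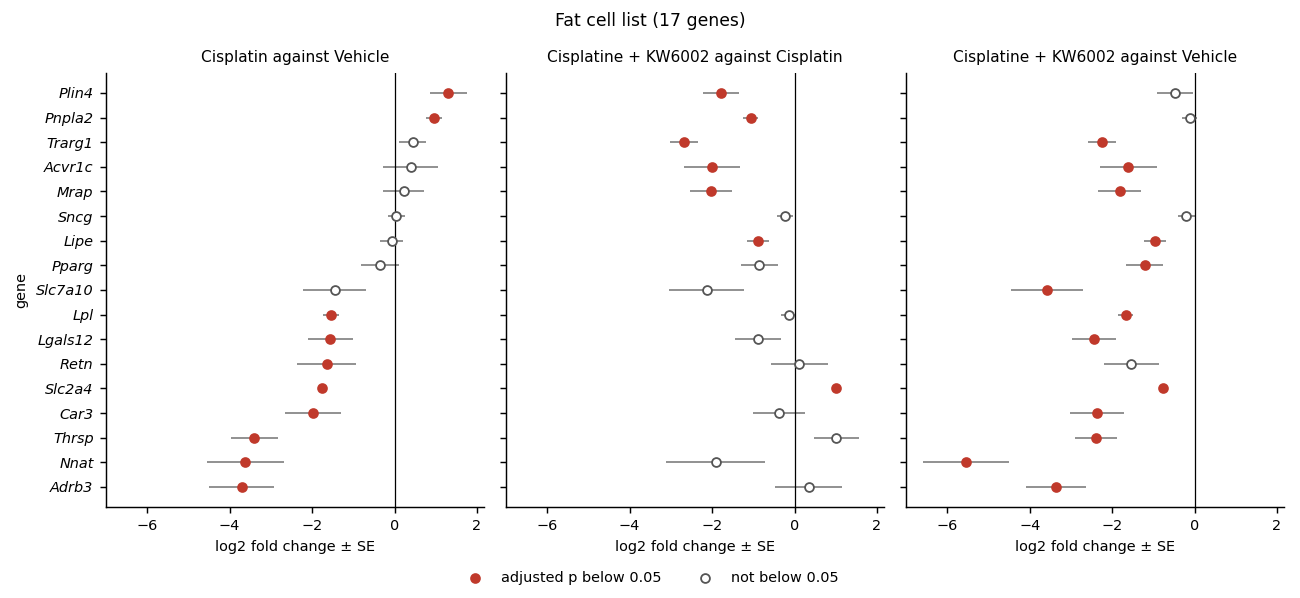
Log2 fold change with SE of the 17 further fat cell genes in 3 comparisons, red where the adjusted p was below 0.05 (edgeR). Cisplatin against Vehicle spans -3.71 (Adrb3) to 1.31 (Plin4), with 8 genes lower and 2 higher. In Cisplatine + KW6002 against Cisplatin 6 were lower and 1 higher, and against Vehicle 13 were lower.

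Of 10 brown fat genes other than Ucp1, 3 fell in Cisplatin against Vehicle, a share near the 35.9% of all genes, namely Cox7a1 (a muscle and brown fat subunit of cytochrome oxidase, by 2.22 ± 0.15), Ppargc1a (a coactivator of mitochondrial genes, by 0.93 ± 0.09) and Prdm16 (by 0.60 ± 0.10), which the kidney expresses too. Against Cisplatin the co-treated kidneys had 5 lower and 3 higher, where 27.2% of all genes were lower and 28.6% higher, and the 3 that rose were these same genes (by 1.38, 0.51 and 0.36 on the log2 scale). Cidea, which tracked Adipoq, was at 27.1 ± 18.7 CPM in Vehicle and 25.5 ± 10.7 CPM in Cisplatin (log2 fold change -0.08 ± 0.66) and fell to 6.09 ± 6.39 CPM in Cisplatine + KW6002 (by 2.07 ± 0.67, adjusted p = 0.0121 by edgeR). Against Vehicle 8 of 10 fell, where 29.9% of all genes did. Prdm16 did not follow Adipoq between kidneys (r = -0.59).

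Genes of fat synthesis and of the lipid droplet moved in opposite directions. Of 16 lipid synthesis genes 11 fell in Cisplatin against Vehicle (median -0.50), where 35.9% of all genes did. Library totals as the only scaling moved the median over all genes to 0.20 on the log2 scale, so that 4244 genes fell and 8157 rose in place of 6155 and 5930, and 7 lipid synthesis genes fell and 2 rose. Scd1 (stearoyl-CoA desaturase) fell by 3.25 ± 0.46, Fasn (fatty acid synthase) by 2.76 ± 0.42 and Acaca (acetyl-CoA carboxylase) by 2.20 ± 0.30. In the co-treated kidneys 9 were higher and 2 lower than in Cisplatin, where 28.6% of all genes were higher and 27.2% lower. Of 13 droplet and lipolysis genes 11 rose with cisplatin (median 0.60), where 34.6% of all genes did, and 12 fell when KW6002 was added (median -0.76), where 27.2% did. Plin2, the droplet coat of most cells outside fat, rose from 112 ± 21.8 to 1068 ± 117 CPM (3.25 ± 0.15) and was at 395 ± 65.3 CPM after co-treatment. G0s2 and Hilpda, inhibitors of the lipase Pnpla2, rose by 1.22 ± 0.09 and 2.61 ± 0.17. Correlation of these 2 lists with Adipoq between kidneys was weaker than that of the fat cell genes (median r 0.53 and 0.32).

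Transcription factors and receptors around the members completed the lists. Of 11 factors of fat cell formation 5 rose and 3 fell in Cisplatin against Vehicle, led by Cebpd (3.45 ± 0.23), Klf5 (2.72 ± 0.18) and Cebpb (2.43 ± 0.43), relatives or partners of Cebpa, and by Zfp467 (-0.71 ± 0.07), Stat5b (-0.56 ± 0.06) and Stat5a (-0.26 ± 0.08) among those that fell. These shares are near the 34.6% of all genes that rose and the 35.9% that fell. Their median r with Adipoq was -0.04. In Cisplatine + KW6002 against Cisplatin 3 rose and 4 fell, near the 28.6% and 27.2% of all genes, among them Klf5 (-1.29 ± 0.15), whereas Cebpd (-0.29 ± 0.19) and Cebpb (-0.11 ± 0.37) did not pass. Lepr, the leptin receptor, rose with cisplatin from 11.1 ± 4.51 to 38.9 ± 9.02 CPM (1.81 ± 0.23, adjusted p = 2.17e-07 by edgeR) and was at 21.3 ± 5.22 CPM after co-treatment, where Lep itself was at 0 to 3 counts. Adipor2, a receptor of adiponectin, rose by 0.20 ± 0.07 with cisplatin and fell by 0.54 ± 0.07 when KW6002 was added, and Cdh13, which binds adiponectin on vessels, fell by 0.95 ± 0.15 with cisplatin. Of the 8 macrophage genes 2 fell and 1 rose with cisplatin, and of the 10 endothelial genes 3 fell and 4 rose. Of 6 mesothelial genes 1 fell and 3 rose, of 2 adrenal genes tested 1 rose, and of 2 muscle genes 1 fell and 1 rose. With 35.9% of all genes falling and 34.6% rising, these counts set none of the 5 lists apart. The 7 proximal tubule markers fell with cisplatin and rose when KW6002 was added, opposite to the droplet genes.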

How the data were processed

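Kidney RNA of 22 mice was measured by RNA-Seq, 1 library per mouse. The authors made libraries with a stranded TruSeq mRNA kit, sequenced single 50-base reads, aligned these to mm10 (STAR 2.5.3a), retained uniquely mapped reads and counted them per gene with HTSeq-count 0.6.1p1 on Ensembl releases 90 and 102. The use of strand is not given in the sources used here. The deposited values are whole-number counts per gene and library, not normalized. A further 66 columns without name or value were not used.

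Counts were fitted with edgeR 4.0.16 in R 4.3.3 (TMM, 1 mean per group, 22 kidneys, filterByExpr, quasi-likelihood F test, Benjamini-Hochberg adjustment over 17131 genes). CPM used TMM library sizes, log2 CPM a prior count of 2, and a call an adjusted p below 0.05. The fit was tested on simulated counts. The 9 members and all gene lists were chosen with earlier results of these data known. Members have no p. The named genes are the members, in each list the 3 genes with the largest log2 fold change in either direction among those called in Cisplatin against Vehicle, and the 15 genes most like Adipoq (1 of them is not reported here), plus genes said to be named after their values were seen. Symbols and overlaps came from GENCODE M21, on the same build. Alternatives were DESeq2 1.42.0, other scalings and filters, the replicate number as a block, the label series, Adipoq as a covariate, a stricter call and each kidney left out. Groups follow the labels, with 5 or 6 mice each. Cisplatin replicates 3 and 4 were the most alike pair (mean chi-square per gene 3.29, where sampling noise gives about 1) and were counted as 2 mice. Floors cover counting error only.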

Additional observations from a re-analysis of the deposited data

Results flagged for a closer look

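Of 36 combinations of a member and a group, 6 held a kidney that Dixon's criterion sets apart from the rest of its group, where chance sets apart about 1 in 20. The members were chosen by these same values, so the 6 kidneys are a description and no test of how often kidneys stand apart. Replicate 1 of KW6002 was far above its group for Cfd (214 CPM, next 81.6) and for Cebpa (40.7 CPM, next 31.4). Replicate 1 of Cisplatine + KW6002 stood out for Plin1 (11.9 CPM, next 3.55) and replicate 3 for Ucp1 (3.84 CPM, next 1.21). Replicate 5 of Cisplatin was high for Cebpa (37.9 CPM, next 31.7), and replicate 2 of Cisplatine + KW6002, which has the least Adipoq, was low for Gpd2 (32.6 CPM, next 41.6).

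The effect of KW6002 with cisplatin differed from that without it, by the interaction term in edgeR, for 4 of the 8 named fat cell and brown fat genes tested. Over all genes the same term passed for 3410 lower and 3902 higher of 17131, so 4 of 8 is near the share of all genes. The log2 difference between the 2 effects was -0.75 ± 0.26 for Pnpla2 (adjusted p = 0.0223 by edgeR), 2.11 ± 0.72 for Thrsp (0.0225), 1.48 ± 0.19 for Cox7a1 (2.61e-06) and 0.58 ± 0.12 for Ppargc1a (0.000523).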

How the results depend on the processing

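Counts of the 17 fat cell genes stayed within 1.5 times the reported ones in 76 of 88 other settings and in 85 of 86 with 1 kidney left out. For Cisplatin against Vehicle (8 lower, 2 higher) the label series as a covariate gave 4 lower, mice of the 500s alone 4 lower and 6 higher, the stricter call (adjusted p below 0.01 and log2 fold change beyond 1) 5 lower and 0 higher, and Adipoq as a covariate 4 higher. The stricter call took 2068 of all 17131 genes as lower and 2069 as higher. Leaving out 1 kidney gave 5 to 9 lower, the 5 without Vehicle replicate 2, and 2 to 3 higher. For Cisplatine + KW6002 against Cisplatin (6 lower, 1 higher) Adipoq as a covariate gave 3 lower and 5 higher, and leaving out 1 kidney 6 to 8 lower. For Cisplatine + KW6002 against Vehicle (13 lower, 0 higher) the label series as a covariate gave 7 lower, mice of the 500s alone 5 lower and 1 higher, a minimum of 10 counts in every library, which leaves fewer genes, 8 lower, and leaving out 1 kidney 11 to 14 lower. Over all genes the label series gave 4711 lower and 4881 higher of 17131, and the 500s alone 4214 and 4364 of 17761. The minimum of 10 counts gave 4397 and 4416 of 14159.

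Adipoq itself had log2 fold changes of -0.69 to 0.40 for Cisplatin against Vehicle, -2.36 to -1.47 for Cisplatine + KW6002 against Cisplatin, -2.77 to -1.33 for Cisplatine + KW6002 against Vehicle and -1.93 to -0.66 for KW6002 against Vehicle with 1 kidney left out. Mice of the 500s alone gave 1.59, -0.14 and 0.49 for the comparisons with Vehicle. The other members kept their value within the spread between replicates in 177 of 192 other settings and 344 of 344 with 1 kidney left out. The fits with the label series or Adipoq as a covariate were not in this tally of settings. Nor were those with 10 counts in every library or with only the compared groups. Leaving out 1 kidney can hardly move a group mean by the whole spread between replicates, so that tally is a weak check. Where the reported value exceeded its SE, 8 changed sign, with mice of the 500s alone: Cfd (0.85) and Cidec (0.14) for Cisplatine + KW6002 against Vehicle, Cfd (0.86), Cidec (0.91), Plin1 (0.037) and Lep (0.89) for KW6002 against Vehicle, and Lep (2.34) and Cebpa (0.053) for Cisplatin against Vehicle. Values within their SE also changed sign there: Plin1 (0.52), Fabp4 (0.76), Adipoq (1.59) and Gpd2 (-0.17) for Cisplatin against Vehicle, and Ucp1 (0.84) for KW6002 against Vehicle. For Fabp4 in Cisplatin against Vehicle library totals alone (0.15) and the replicate block (0.0058) did so too, and the values within their SE of Cfd, Plin1, Fabp4, Ucp1 and Gpd2 changed sign with single kidneys left out. The cause was not tested.

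Replicate numbers were not taken to pair the mice. Over 31 pairs of kidneys with the same number, deviations from group means correlated at -0.18 to 0.40 (median 0.01), with 7 pairs above 0.1. Of 22 kidneys 8 correlated best with their own number, and how many would do so without pairing was not tested. With the replicate number as a block the fat cell counts were 7 lower and 2 higher, 8 lower and 1 higher, and 14 lower and 0 higher in the 3 comparisons with cisplatin-treated mice, and Adipoq was at -0.07, -2.19, -2.27 and -1.56 in the 4 comparisons. Depth limits Lep in Cisplatine + KW6002, Ucp1 and Plin1 in the kidneys with the least Adipoq, and the ratios to Adipoq in the kidney with 13 counts of it.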
